A study of Mus musculus with 4 samples.

Results

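The cytotoxic granule genes described here are 4 granzymes (Gzma, Gzmb, Gzmk and Gzmm), the pore-forming protein perforin (Prf1), the granule proteoglycan serglycin (Srgn) and the granule membrane protein Nkg7. These 7 genes were taken by symbol from the 14226 rows of the deposited expression table, and each matched exactly 1 row; the rule used their names and no measured value. RNA sequencing had been done on splenocytes, the mixed cell suspension of a whole spleen, from C57BL/6N mice. There were 2 libraries from transgenic mice with the genotype vcS5 +/T and 2 from wild-type mice (wt), and the series title links an activating STAT5 mutation to peripheral T-cell lymphoma. The promoter of the transgene, the age and sex of the mice and any pooling are not given in the sources used here, and the file headers name the transgenic samples as a single line, line1. The labels call the libraries of a group biological replicates.

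Cytotoxic T cells and natural killer (NK) cells kill by releasing granules onto a target cell. Perforin opens pores in the target membrane, and granzymes, a family of serine proteases, enter through them and cleave proteins that trigger death. In the granule the granzymes are bound to serglycin, and granzymes differ in the amino acid after which they cleave. In a resting spleen, NK cells and a minority of T cells are the known sources of these transcripts, while serglycin is made by many blood cells.

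Values are FPKM, a level scaled by transcript length and library size, so levels may be compared between genes. Stat5a, which encodes a STAT5 protein, had 105 and 123 FPKM in vcS5 libraries, against 13.9 and 17.0 FPKM in wild-type libraries. Whether reads of the transgene count in this row was not tested. Markers of T cells and B cells moved with the genotype as well. Cd8a had 391 and 445 FPKM in vcS5, against 51.1 and 62.9 FPKM in wild type. In contrast, 3 of 3 CD4 T cell markers and 6 of 6 B cell markers fell, beside 4.13% of all rows by the test given below. Cd4 itself had 35.6 and 35.95 FPKM in vcS5, against 56.8 and 71.0 FPKM in wild type. More cells of a type and more RNA per cell cannot be told apart in these bulk libraries, and this holds for every difference below. Median FPKM per library was 12.16 to 12.58, and the median log2 difference over all rows was 0.001.

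Granzyme M, granzyme B, Nkg7 and perforin rose in vcS5 spleens, while granzyme A, granzyme K and serglycin did not pass the test. Of the 7 genes 4 were called higher and 0 lower by limma (Benjamini-Hochberg adjusted p under 0.05 over all rows), against 4.59% of all rows called higher, 4.13% called lower and 8.72% called either way. At an unadjusted p under 0.05, 0 of the 7 were lower too. The authors' deposited table has 5 of the 7 higher and 0 lower at a q under 0.05, against 5.31% and 6.14% of all rows. Fewer calls remained with 3 libraries: 2 members were higher without vcS5 replicate 1 (0.506% of all rows), 1 without vcS5 replicate 2 (0.366%), 3 without wild type replicate 1 (0.851%) and 3 without wild type replicate 2 (1.15%). In 5 genes both vcS5 libraries lay above both wild-type libraries, an order that 26.9% of all rows showed, and serglycin had the opposite order, shown by 27.5%. Log2 differences below are on the log2(FPKM + 1) scale, vcS5 minus wild type, with the moderated SE of limma.

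**Figure D1:**
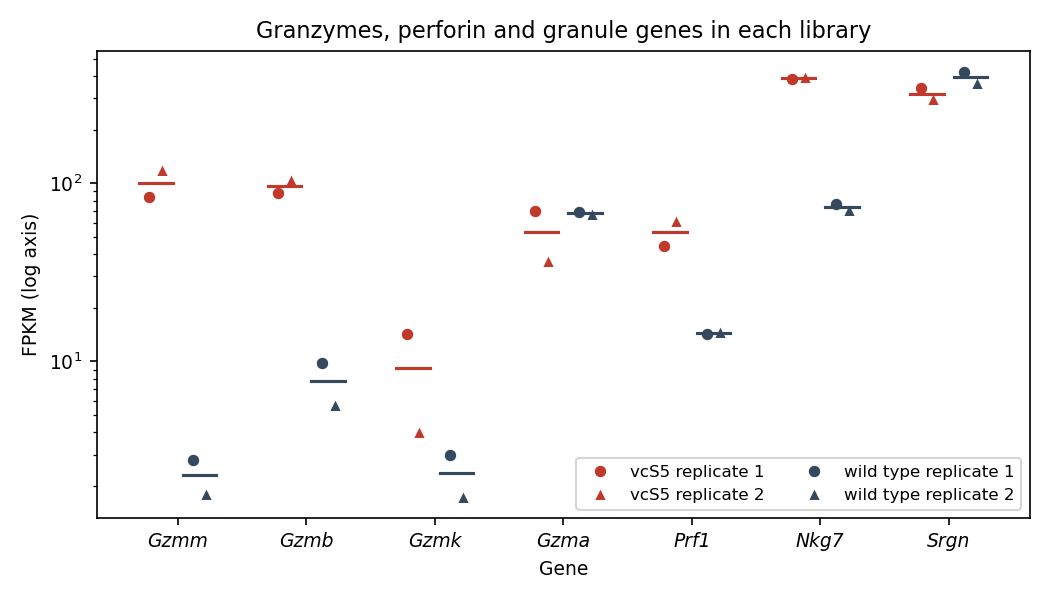
FPKM on a log axis for the 7 genes in each library, with vcS5 in red and wild type in grey, circles for replicate 1, triangles for replicate 2 and a line at each group mean (n = 2). Gzmm sits at 83.8 and 118 FPKM in vcS5 and at 2.79 and 1.80 FPKM in wild type, while the Gzma points of the groups overlap.

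Granzyme M, which in mouse and human cleaves after methionine or leucine, had 83.8 and 118 FPKM in vcS5 libraries, against 2.79 and 1.80 FPKM in wild-type libraries. The groups lay far apart, and by abundance among the 14226 rows the gene ranked 1238 and 906 in vcS5, against 11380 and 12498 in wild type. Its row covers chr10:79689020-79695261 on the plus strand (mm10), the span annotated as Gzmm. The ratio of means was 44.0, with a log2 difference of 4.95 (SE 0.241, adjusted p = 0.00123 by limma). Its call held with any 1 library left out, with adjusted p-values from 0.0113 to 0.025 by limma.

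Granzyme B, encoded at chr14:56258856-56262260 on the minus strand, cleaves after aspartate as caspases do. It had 88.2 and 104 FPKM in vcS5 libraries, against 9.86 and 5.72 FPKM in wild-type libraries. It was 12.3-fold higher, with a log2 difference of 3.50 (SE 0.26, adjusted p = 0.0047 by limma). Without vcS5 replicate 1 or replicate 2 the log2 difference was 3.62 or 3.38, and the adjusted p was 0.064 or 0.0781 by limma. Granzymes M and B differed in vcS5 by less than the spread between libraries, at 101 ± 24.1 and 96.1 ± 11.1 FPKM (SD, n = 2). In wild type, granzyme B stood above granzyme M in both libraries.

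Granzyme A (chr13:113093824-113100979, minus strand), a trypsin-like granzyme that is abundant in resting NK cells, had 69.8 and 36.7 FPKM in vcS5 libraries, against 69.3 and 67.2 FPKM in wild-type libraries. Replicate 1 of vcS5 stood at the wild-type level and replicate 2 at 0.526 of replicate 1, so the groups overlapped. The log2 difference was -0.42 (SE 0.31, adjusted p = 0.473 by limma), and it turned to 0.03 without vcS5 replicate 2. Granzyme K (chr13:113171608-113225908, minus strand) is another trypsin-like granzyme, and its span also contains Esm1 on the other strand. Of 1388 read-length stretches of the annotated Gzmk transcripts, 0 occur in transcripts of another gene. How reads within the shared span were assigned in the deposited values was not tested. Granzyme K had 14.3 and 4.04 FPKM in vcS5 libraries, against 2.97 and 1.74 FPKM in wild-type libraries. Here too vcS5 replicate 1 was the higher library, 3.53-fold above replicate 2, a gap that only 0.818% of 9775 rows with a mean of at least 5 FPKM matched or exceeded. The corresponding share was 3.77% for granzyme A. Granzyme K did not pass (log2 difference 1.41, SE 0.547, adjusted p = 0.193 by limma), whereas the authors' deposited table gives it a q of 0.000995. Its log2 difference was 0.61 without vcS5 replicate 1 and 2.21 without replicate 2.

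Perforin (chr10:61297768-61304750, plus strand) had 44.7 and 61.2 FPKM in vcS5 libraries, against 14.3 and 14.6 FPKM in wild-type libraries. The groups did not overlap, and the spread lay almost wholly within vcS5. It was 3.66-fold higher (log2 difference 1.78, SE 0.187, adjusted p = 0.0109 by limma). The call was lost with any 1 library left out, at adjusted p-values of 0.0549 without vcS5 replicate 1, 0.0894 without vcS5 replicate 2, 0.0735 without wild type replicate 1 and 0.0696 without wild type replicate 2 by limma, while the log2 difference stayed between 1.56 and 2.01. Nkg7 (chr7:43437073-43438246, plus strand), a membrane protein that cytotoxic lymphocytes need to release their granules, had 382 and 396 FPKM in vcS5 libraries, against 76.5 and 71.1 FPKM in wild-type libraries. Of the 7 genes it had the smallest SE (log2 difference 2.38, SE 0.142, adjusted p = 0.00241 by limma), and its call was lost without vcS5 replicate 2 (adjusted p = 0.057 by limma).

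Serglycin (chr10:62493833-62527451, minus strand), the proteoglycan that packs granzymes and other granule proteins, had 340.3 and 297 FPKM in vcS5 libraries, against 421 and 367 FPKM in wild-type libraries. All vcS5 values lay below all wild-type values, but the gene did not pass the test (log2 difference -0.31, SE 0.175, adjusted p = 0.353 by limma). Neutrophils also contain serglycin. The summed level of 12 neutrophil markers was 1004 and 976 FPKM in vcS5, against 6167 and 1862 FPKM in wild type. Of the 12, 1 was called lower, beside 4.13% of all rows, and none was at 0. The neutrophil gene S100a8 alone had 489 and 389 FPKM in vcS5, against 2932 and 714 FPKM in wild type. The 7 markers of monocytes and macrophages measured summed to 208 and 252 FPKM in vcS5, against 565 and 398 FPKM in wild type, with 1 lower and none at 0. The part of these cells in the serglycin values was not tested.

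The order of the levels differed between the genotypes. In vcS5 it ran from Nkg7 and serglycin through Gzmm, Gzmb, Gzma and Prf1 to Gzmk, and Gzma (53.2 ± 23.4 FPKM) and Prf1 (53.0 ± 11.6 FPKM; SD, n = 2 each) did not differ beyond their spread. In wild type it ran from serglycin through Nkg7, Gzma, Prf1 and Gzmb to Gzmk and Gzmm, where the last pair had 2.36 ± 0.867 and 2.29 ± 0.698 FPKM (SD, n = 2 each) and did not differ beyond theirs. Nkg7 and Gzma were close in wild type, at 73.8 ± 3.80 and 68.3 ± 1.45 FPKM (SD, n = 2 each).

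The granzyme pool, the summed FPKM of Gzma, Gzmb, Gzmk and Gzmm, was larger in vcS5 and was made up differently. It reached 256 and 263 FPKM in vcS5 libraries, against 84.9 and 76.5 FPKM in wild-type libraries, a 3.21-fold ratio of means. With 2 libraries a group the smallest two-sided exact permutation p is 0.333, so sums and shares are given as values with no test. Granzyme A supplied 27.2% and 14.0% of the pool in vcS5 libraries, against 81.6% and 87.9% in wild-type libraries. Granzyme M supplied 32.7% and 44.9% in vcS5, against 3.28% and 2.35% in wild type. Granzyme B supplied 34.5% and 39.6% in vcS5, against 11.6% and 7.48% in wild type. None of these 3 shares overlapped between the genotypes. In FPKM, 26.9% of all rows had both vcS5 libraries above both wild-type libraries, and 27.5% had both below. Shares of the same pool do not move separately, and the FPKM of granzyme A itself overlapped.

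The share of granzyme K did overlap, with 5.58% and 1.54% of the pool in vcS5 and 3.50% and 2.28% in wild type. The largest component was granzyme B in vcS5 replicate 1 and granzyme M in vcS5 replicate 2, while granzyme A led both wild-type libraries. Leaving granzyme A out, the other granzymes summed to 206 ± 28.0 FPKM in vcS5 and 12.4 ± 4.49 FPKM in wild type (SD, n = 2 each). Per FPKM of granzyme A there were 1.20 and 3.22 FPKM of granzyme M in vcS5 libraries, against 0.0402 and 0.0268 in wild-type libraries. Perforin relative to the pool came to 0.175 and 0.233 FPKM per pool FPKM in vcS5 and 0.169 and 0.191 in wild type, and these values overlap. The pool per FPKM of serglycin was 0.753 and 0.884 in vcS5, against 0.202 and 0.208 in wild type. The other granzyme genes Gzmc, Gzmd, Gzme, Gzmf, Gzmg and Gzmn had no row and were not analysed here.

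**Figure D2:**
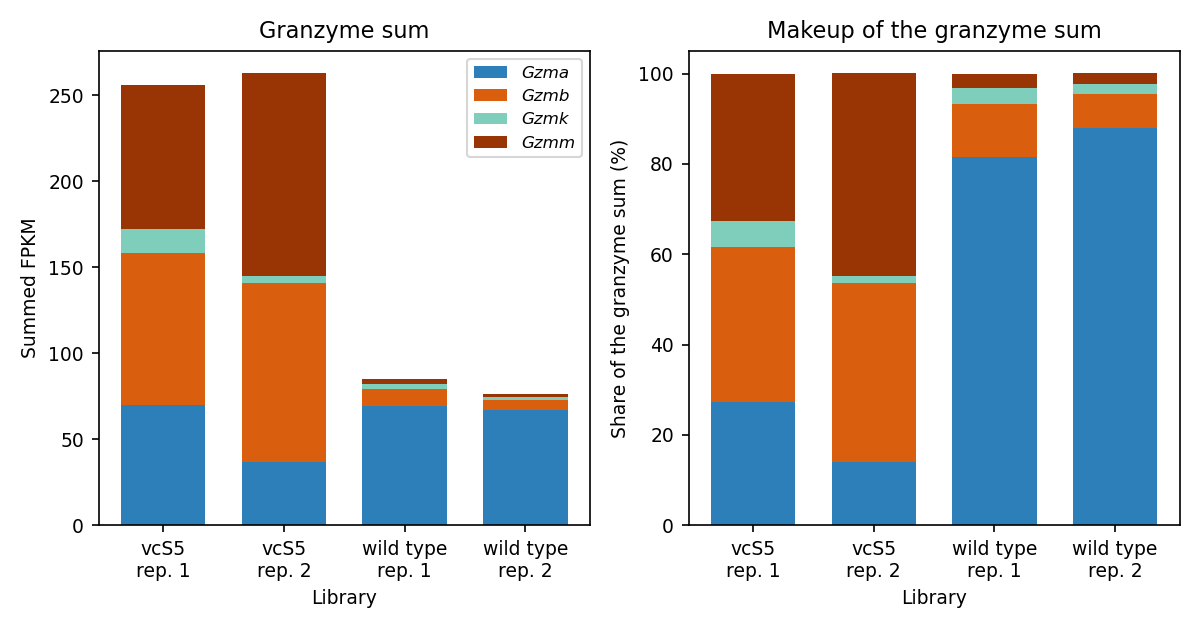
Stacked bars of the 4 granzymes in each library, as summed FPKM on the left and as a percentage of that sum on the right, with the vcS5 libraries left of the wild-type libraries. The bars reach 256 and 263 FPKM in vcS5 and 84.9 and 76.5 FPKM in wild type, and Gzma fills 27.2% and 14.0% of the vcS5 bars and 81.6% and 87.9% of the wild-type bars.

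The promoters of the 4 genes that rose, and of granzyme A as a granzyme that did not, are shown for comparison with these values. The stretches are the 250 bases before the RefSeq start site (GRCm38.p6, the mm10 build), 5′ to 3′ on the gene's strand. They lie at chr10:79688770-79689019 (plus strand) for Gzmm, chr14:56262335-56262584 (minus) for Gzmb, chr7:43436888-43437137 (plus) for Nkg7, chr10:61297586-61297835 (plus) for Prf1 and chr13:113100982-113101231 (minus) for Gzma. Capitals mark matches on either strand to TTCNNNGAA (STAT), GGTGTGA (T-box), TGTGGT (RUNX) and TGANTCA (AP-1), none of which overlap each other here.
Gzmm: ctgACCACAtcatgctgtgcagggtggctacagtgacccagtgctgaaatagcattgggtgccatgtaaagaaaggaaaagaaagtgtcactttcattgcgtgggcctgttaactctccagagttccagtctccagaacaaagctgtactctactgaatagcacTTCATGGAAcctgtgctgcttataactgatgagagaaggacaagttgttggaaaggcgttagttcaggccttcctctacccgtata
Gzmb: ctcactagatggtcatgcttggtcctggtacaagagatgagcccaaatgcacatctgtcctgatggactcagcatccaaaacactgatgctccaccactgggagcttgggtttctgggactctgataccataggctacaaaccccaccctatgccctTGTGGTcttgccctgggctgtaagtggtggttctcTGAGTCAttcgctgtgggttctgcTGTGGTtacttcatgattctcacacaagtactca
Nkg7: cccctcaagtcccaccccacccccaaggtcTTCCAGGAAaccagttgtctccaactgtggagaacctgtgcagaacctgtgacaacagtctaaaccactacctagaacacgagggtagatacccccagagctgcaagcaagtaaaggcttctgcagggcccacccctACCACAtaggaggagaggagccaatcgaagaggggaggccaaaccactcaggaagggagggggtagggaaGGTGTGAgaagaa
Prf1: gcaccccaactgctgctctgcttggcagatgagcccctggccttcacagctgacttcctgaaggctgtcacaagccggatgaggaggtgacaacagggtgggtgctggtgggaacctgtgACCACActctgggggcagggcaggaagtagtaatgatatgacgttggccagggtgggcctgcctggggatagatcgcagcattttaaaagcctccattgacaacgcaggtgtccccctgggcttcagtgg
Gzma: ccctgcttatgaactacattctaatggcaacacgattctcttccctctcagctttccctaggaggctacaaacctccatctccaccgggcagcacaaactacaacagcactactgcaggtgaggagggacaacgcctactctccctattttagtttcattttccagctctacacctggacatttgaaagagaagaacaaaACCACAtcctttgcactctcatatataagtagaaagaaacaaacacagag

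All 7 genes had a window in the RefSeq table. STAT letters occurred in 2 of them, 86 bases before the start of Gzmm (TTCATGGAA) and 220 bases before that of Nkg7 (TTCCAGGAA), against 7.02% of 32851 promoter windows of the same length. RUNX letters occurred in 5 of 7, namely Gzma, Gzmb, Gzmm, Prf1 and Nkg7, against 14.0% of windows, and Gzmb held 2 matches, 93 and 34 bases before its start. T-box letters occurred in Gzmk and Nkg7, 75 and 13 bases before the RefSeq start, against 3.33% of windows. The Gzmk window lies inside the span of the measured Gzmk row, and this Nkg7 match lies past the start of the measured Nkg7 row. The AP-1 letters occurred in Gzmb alone of the 7, against 6.75%. A match describes the letters of the window, and Gzma, which did not rise, holds the RUNX letters as Gzmm, Gzmb, Prf1 and Nkg7 do.

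Set against the T cell genes Cd8a and Cd3e, some members lay above wild type in vcS5 and others below it. Per 100 FPKM of Cd8a, granzyme M had 21.5 and 26.5 FPKM in vcS5, against 5.45 and 2.86 FPKM in wild type. Granzyme B had 22.6 and 23.4 FPKM in vcS5, against 19.3 and 9.10 FPKM in wild type on the same scale, so its values nearly met. Its log2 ratio of vcS5 over wild type on that scale was 1.34 without wild type replicate 1 and 0.25 without wild type replicate 2. Granzyme A had 17.8 and 8.25 FPKM per 100 FPKM of Cd8a in vcS5, against 135 and 107 FPKM in wild type. Of the 7 genes, 2 (Gzmm and Gzmb) were above wild type in both vcS5 libraries on this scale, an order shown by 0.731% of all rows. Another 4 (Gzma, Prf1, Srgn and Nkg7) were below, as were 97.8% of all rows.

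Perforin per 100 FPKM of Cd8a was 11.4 and 13.7 FPKM in vcS5, against 28.0 and 23.3 FPKM in wild type. The whole pool was 65.5 and 59.0 FPKM per 100 FPKM of Cd8a in vcS5, against 166 and 122 FPKM in wild type. Both thus lay lower on this scale although their FPKM was higher. Per 100 FPKM of Cd3e, a chain of the T cell receptor complex, 4 members (Gzmm, Gzmb, Prf1 and Nkg7) were above wild type, an order shown by 2.48% of all rows, and 2 (Gzma and Srgn) were below, as were 91.9%. Perforin then had 23.7 and 32.5 FPKM in vcS5, against 21.4 and 20.8 FPKM in wild type, and the pool averaged 138 ± 2.76 FPKM in vcS5 and 118 ± 12.7 FPKM in wild type (SD, n = 2 each). Set against the mean of Cd3d, Cd3e and Cd3g instead, the pool values overlapped between the genotypes.

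**Figure D3:**
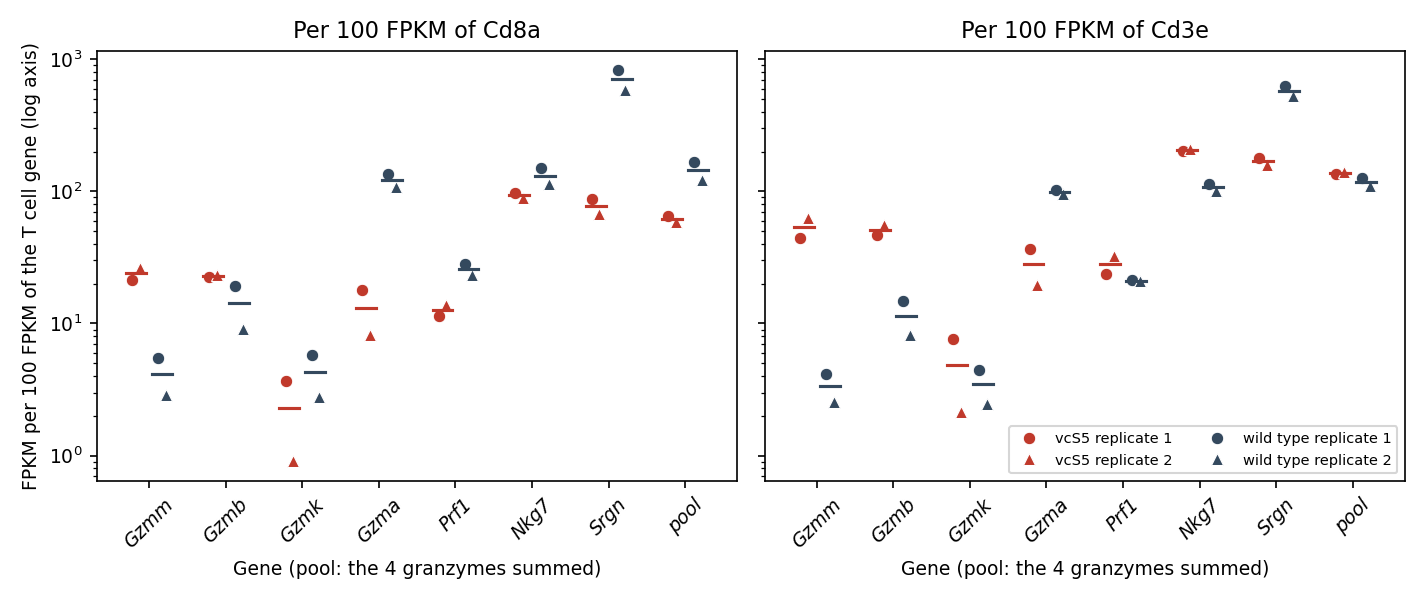
FPKM of each member, and of the 4 granzymes summed (pool), per 100 FPKM of Cd8a on the left and of Cd3e on the right, on a shared log axis, with the symbols and colours as for the FPKM plot. Per Cd8a the pool stands at 65.5 and 59.0 in vcS5 and at 166 and 122 in wild type, while Gzmm stands at 21.5 and 26.5 in vcS5 and at 5.45 and 2.86 in wild type.

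Markers of other cells that hold granzymes moved unevenly between the genotypes. NK cell markers went both ways, with 4 of 12 higher and 5 lower, beside 4.59% and 4.13% of all rows. Nkg7 itself was among those higher. Ncr1, the NK cell receptor NKp46, had 0.635 and 0.776 FPKM in vcS5 libraries, against 13.7 and 15.1 FPKM in wild-type libraries. Klrb1c, which encodes NK1.1, had 8.12 and 5.62 FPKM in vcS5, against 11.9 and 13.9 FPKM in wild type, and did not pass (adjusted p = 0.0757 by limma). The 12 NK markers summed to 751 and 755 FPKM in vcS5, against 442 and 352 FPKM in wild type, and none was at 0. Without Nkg7, the other 11 had 3 higher and 5 lower, and their sums of 368 and 359 FPKM in vcS5 overlapped the 366 and 281 FPKM in wild type. Both CD8 markers, Cd8a and Cd8b1, rose, and they summed to 957 and 1105 FPKM in vcS5, against 125 and 167 FPKM in wild type. Of 6 gamma delta T cell markers listed, only 3 were measured. Cd163l1 rose, to 33.5 and 42.4 FPKM in vcS5, against 0.883 and 1.55 FPKM in wild type. Sox13 rose too, to 2.75 and 3.63 FPKM in vcS5, against 0.624 and 0.685 FPKM in wild type. The constant segment Tcrg-C2 fell, to 23.5 and 15.2 FPKM in vcS5, against 765 and 1999 FPKM in wild type. By abundance the Tcrg-C2 row ranked 136 and 45 in the wild-type libraries, and the source of its reads was not tested.

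Mast cell and basophil markers summed to 12.8 and 14.2 FPKM in vcS5, against 55.7 and 27.1 FPKM in wild type. Of 6 measured, 1 was lower, Hdc, beside 4.13% of all rows, and none was at 0. The protease genes Mcpt8 and Cpa3 of these cells had means of 2.98 ± 0.557 and 1.02 ± 0.341 FPKM in vcS5, against 11.0 ± 9.14 and 2.74 ± 2.07 FPKM in wild type (SD, n = 2). Of 5 markers of plasmacytoid dendritic cells, which can contain granzyme B, 3 were lower, and Siglech had 2.86 and 2.41 FPKM in vcS5, against 5.51 and 7.43 FPKM in wild type. All 5 summed to 75.7 and 92.3 FPKM in vcS5, against 97.9 and 109 FPKM in wild type, and none was at 0. The part of NK, gamma delta T, mast and dendritic cells in the granzyme values was not tested.

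Transcription factors of the cytotoxic program were higher in part. Of 11 rows for 10 genes, 5 were called higher and 0 lower, beside 4.59% and 4.13% of all rows. The list's median difference was 0.73 on the log2 scale. Eomes, a T-box factor of memory CD8 T cells and NK cells, had 44.0 and 46.9 FPKM in vcS5, against 10.6 and 7.86 FPKM in wild type (log2 difference 2.19, SE 0.178, adjusted p = 0.00593 by limma). Tbx21, the T-box factor T-bet that activates Prf1 and Gzmb in mouse T cells, had 30.5 and 36.3 FPKM in vcS5, against 12.7 and 9.998 FPKM in wild type (log2 difference 1.48, SE 0.179, adjusted p = 0.0146 by limma). Hopx, a homeodomain cofactor, Id2, an inhibitor of E proteins, and 1 of 2 rows of Stat4, the interleukin 12 signal transducer, also rose, by 1.58, 1.25 and 1.06. Both Stat4 rows share 1 locus, and the Hopx row shares its locus with other rows, so the division of reads among them is uncertain.

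Among 9 other cytotoxic effector molecules, 4 rose and 1 fell, beside 4.59% and 4.13% of all rows. The list's median difference was -0.16 on the log2 scale. Fasl, the ligand that kills through Fas, had 17.4 and 19.6 FPKM in vcS5, against 3.69 and 2.31 FPKM in wild type. Ifng, interferon gamma, had 25.0 and 21.9 FPKM in vcS5, against 7.72 and 4.80 FPKM in wild type. The chemokine Ccl5, which is stored in T cells, rose by 3.26 (SE 0.254, adjusted p = 0.00529 by limma), and Tnfsf10, the death ligand TRAIL, by 1.14. Ccl3, a chemokine of activated lymphocytes and myeloid cells, fell by 1.56 on the log2 scale, to 10.9 and 8.11 FPKM in vcS5, against 33.0 and 26.7 FPKM in wild type.

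Genes of granule protease maturation and lysosomal content moved unevenly, since 4 of 11 rose and 1 fell, beside 4.59% and 4.13% of all rows. The list's median difference was -0.16 on the log2 scale. Ctsc, the dipeptidyl peptidase that removes the propeptide of granzymes, had 81.4 and 85.0 FPKM in vcS5, against 121 and 109 FPKM in wild type, and did not pass (log2 difference -0.46, SE 0.141, adjusted p = 0.122 by limma). Cst7, cystatin F, an inhibitor of that peptidase, had 87.8 and 101 FPKM in vcS5, against 20.98 and 16.8 FPKM in wild type (log2 difference 2.27, SE 0.169, adjusted p = 0.00473 by limma). Ctsw, cathepsin W of cytotoxic lymphocytes, had 194 and 263 FPKM in vcS5, against 43.0 and 49.9 FPKM in wild type, a rise of 2.26 on the log2 scale. Igf2r, the larger mannose 6-phosphate receptor that sorts lysosomal enzymes, and Ctsd, the aspartic protease cathepsin D, rose by 1.31 and 1.16. Ctsh, cathepsin H, fell by 1.31 on the same scale. The Ctsd row also carries the identifier of another gene, so its value may not be of Ctsd alone.

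Of 18 genes listed for granule transport and release, 4 rose and 1 fell, beside 4.59% and 4.13% of all rows. On the log2 scale the list's median difference was 0.10. Unc13d, the priming factor Munc13-4, had 43.9 and 47.8 FPKM in vcS5, against 38.7 and 45.7 FPKM in wild type, and the groups overlapped (log2 difference 0.12, SE 0.15, adjusted p = 0.696 by limma). Sytl1, Sytl3 and Sytl2, synaptotagmin-like proteins that bind Rab27, rose by 1.81, 1.38 and 0.97. Crtam, a surface molecule of activated cytotoxic lymphocytes, rose by 2.04, and the endosomal syntaxin Stx7 fell by 0.91 on the log2 scale. Rab27a, the granule GTPase itself, differed by 0.18 (SE 0.155, adjusted p = 0.538 by limma).

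Of 4 serpins measured, 1 fell and 0 rose, beside 4.13% and 4.59% of all rows. The list's median difference was 0.23 on the log2 scale. Serpinb9, the inhibitor of granzyme B that protects cytotoxic cells from their own granules, had 11.9 and 10.3 FPKM in vcS5, against 8.80 and 6.75 FPKM in wild type, without passing (log2 difference 0.48, SE 0.182, adjusted p = 0.188 by limma). The gene that fell was Serpinb1a, an inhibitor of neutrophil serine proteases, with 46.8 and 50.1 FPKM in vcS5, against 120.0 and 151 FPKM in wild type. The neutrophil markers summed lower in vcS5, as given for serglycin, and the part of those cells in this fall was not tested. The calls in these lists rested on all 4 libraries, and with 1 left out no list had more than 3 genes called higher and none had any called lower.

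**Figure D4:**
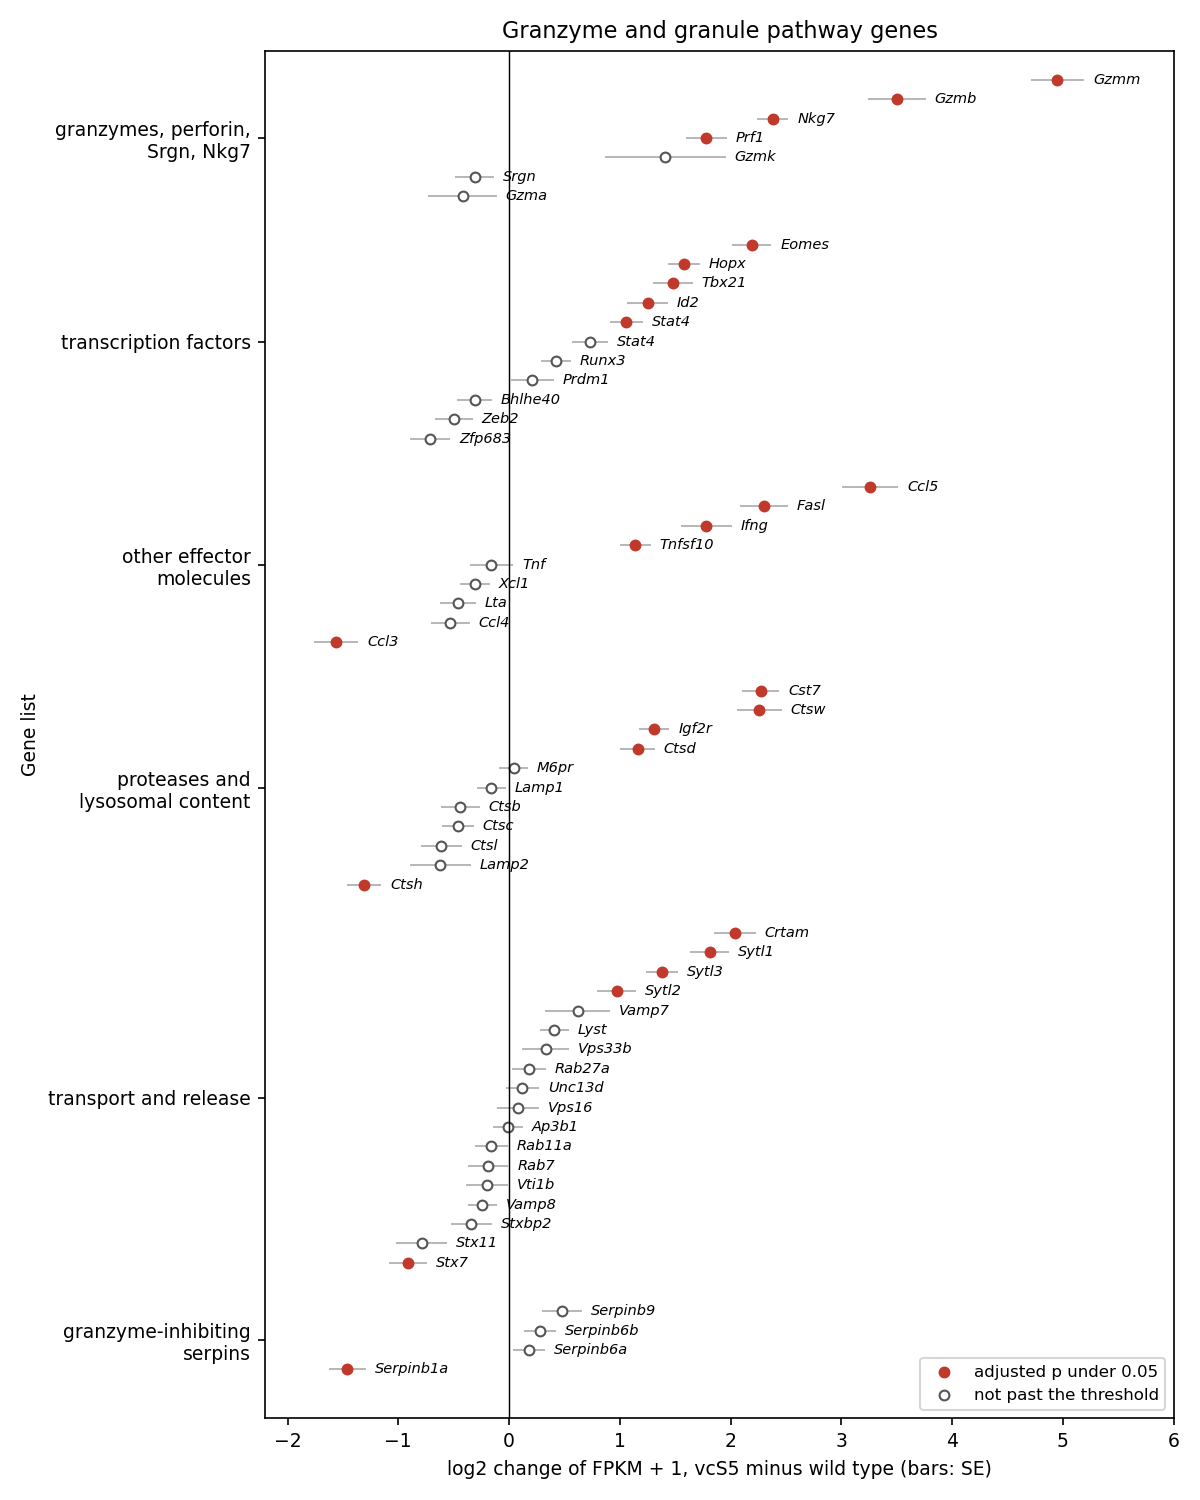
Log2 difference of FPKM + 1, vcS5 minus wild type, with its SE as a bar, for the granzyme and granule genes at the top and the pathway lists under them, filled where the adjusted p is under 0.05 by limma. Gzmm lies farthest right at 4.95, while Gzma at -0.42, Srgn at -0.31, Unc13d at 0.12 and Serpinb9 at 0.48 are open symbols.

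The rows nearest to each member were found by the distance between log2(FPKM + 1) values over the 4 libraries, centred on each row's mean. Candidates were 8456 rows with a symbol and a mean of at least 5 FPKM, leaving out members, antigen receptor segments, and Gm and Rik symbols. Nearest to Gzma was Ctla4, at a distance of 0.092, with 22.01 and 11.01 FPKM in vcS5 and 21.2 and 19.4 FPKM in wild type, so it too was low in vcS5 replicate 2 alone, followed by H60b and Cgrrf1. Nearest to Gzmk was Ifitm1, at 0.414, with 119 and 39.8 FPKM in vcS5 and 29.4 and 14.5 FPKM in wild type, followed by Slc6a19 and Dos. Next to Gzmb came Ccl5, F2r and Myo6, at 0.266 to 0.286. Nearest to Prf1 stood Pde2a at 0.0369, with Iqgap2 and Sntb2 after it. Nkg7 had S1pr5 at 0.144, then Car12 and Rcn1, and Srgn had Ms4a6c at 0.0335, then Clk4 and Leprot. Gzmm had no close match, since its nearest row stood at 0.957. The deposited symbol of that row is Pax9, but its locus is the one given for Hopx, and Cd163l1 and Drc1 followed it. These distances rest on 4 libraries and describe the values only.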

How the data were processed

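Total RNA of 4 splenocyte samples had been made into TruSeq v2 libraries and read as 50 bp single ends, per the labels' protocols; no strand-specific step is described. The authors deposited 1 table of FPKM per library, per the file headers. TopHat2 2.0.9, Bowtie2 2.1.0, Cufflinks and Cuffdiff 2.1.1 and mm10 are named in the submitters' processing notes, without settings. The deposited table also holds the authors' log2 fold change, p-value and q-value, used here only where named. FPKM hides read numbers, so no counting interval is given. The most frequent exact ratio between libraries puts the worth of 1 read at 0.94 and 1.02 in vcS5 and 0.847 in wild type replicate 1, relative to wild type replicate 2, so relative depth was similar.

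Values were transformed as log2(FPKM + 1) and compared with limma 3.58.1 in R 4.3.3, with a variance trend and no covariates, in a single fit of 4 libraries by 14226 rows; p-values are two-sided and were adjusted over those rows by the Benjamini-Hochberg method, with calls made under 0.05. The filter of a mean FPKM of 1 removed 0 rows, so genes under that level are not analysed here. The fit has 2 residual degrees of freedom. The scripts were tested on simulated data. P-values cover only the spread between these samples. Loci are 1-based on mm10. No 50-base word of a member's transcripts in GENCODE M21 occurs in transcripts of another gene; Gzmk's locus also contains Esm1 on the other strand.

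Members and gene lists were chosen with earlier results of these data known. Named genes are the members, a few fixed regulators and markers, and the 3 nearest rows of each member. From each list of the granule pathway, up to 4 called genes with the largest changes are named too. Ctsd, Tnfsf10, Stat4, Stx7, Rab27a and Hdc were added after their values were seen. Stat5a, Cd4, Sox13 and Tcrg-C2 are also named outside this rule. Alternatives were other pseudocounts, filters and scalings, no variance trend, a replicate block, each library left out, and the authors' q-values.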

Additional observations from a re-analysis of the deposited data

How the results depend on the processing

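With pseudocounts of 0.1 and 5, a filter at a mean FPKM of 5, no variance trend, quantile normalization and median scaling, 4 members were higher and 0 lower, as in the report. A fit with no filter is the same fit as in the report, where the filter removed 0 rows. In the authors' deposited table Gzmk passed too, with a log2 change of 1.96. Leaving out 1 library at a time, with the lone sample assumed to vary like the others, members called higher numbered 1 to 3 and lower 0, and rows called numbered 52 to 164 higher and 19 to 81 lower, against 653 and 588, with fewer samples in each fit. Log2 changes ran from -0.88 to 0.03 for Gzma (the 0.03 without vcS5 replicate 2), 3.16 to 3.85 for Gzmb, 0.61 to 2.21 for Gzmk, 4.70 to 5.19 for Gzmm, 1.56 to 2.01 for Prf1, -0.40 to -0.21 for Srgn and 2.33 to 2.44 for Nkg7. The pool difference, vcS5 minus wild type, ran from 175 to 183 FPKM, and the share differences from -70.8 to -57.5 percentage points for Gzma, 24.9 to 30.0 for Gzmb, -1.35 to 2.69 for Gzmk and 29.9 to 42.1 for Gzmm. Members above wild type numbered 2 to 2 per Cd8a and 4 to 5 per Cd3e. These counts cannot fall when a library is left out, so they do not check the order. Per Cd8a, the log2 ratio of vcS5 over wild type ran from 0.252 to 1.34 for Gzmb and from 2.14 to 3.07 for Gzmm. Each list of the granule pathway also had fewer genes called with 1 library left out. The pool of every granzyme row is the same pool. With the replicate number as a block, 4 members were higher and 0 lower, and 579 and 449 rows were called. The labels tie the numbers to no shared animal or day, and the correlation of same-numbered deviations was 0.176 over all rows and 0.235 over rows with a mean of at least 5 FPKM, from only 2 pairs, so the numbers are not taken as pairs. With 2 libraries a group, differences of up to 4.48 times their SE were not called among the listed genes.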
